A study of Mus musculus with 4 samples.

Results

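Voltage-gated sodium, calcium and HCN channel genes were examined in tdTomato+ neurons from a pair of ES cell lines, N/D and N/D/S, by bulk RNA-seq. The 36 genes were picked by symbol, not by their values, from the 34968 symbols shared by all 4 libraries. Earlier results of these data were known when the families were set. They comprised 10 sodium channel alpha subunits (Scn symbols ending in a), 4 sodium channel beta subunits (Scn symbols ending in b), 10 calcium channel pore subunits (Cacna1), 4 alpha2delta subunits (Cacna2d), 4 calcium channel beta subunits (Cacnb) and 4 HCN subunits (Hcn). Of the 36 genes, 22 reached 1 TPM or more, a read level scaled for transcript length and library total, in at least 2 libraries and were tested, alongside 12975 genes in all.

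Both lines were mouse ES cells of C57/BL6 strain built on a parental line carrying Dlx6-Cre and the Ai9 reporter, in which Cre activity in subpallial lineages switches on tdTomato. Both carried a transgene in which a Nestin element drives Nkx2-1 and a Tet transactivator, and a Tet-O transgene encoding Dlx2. In N/D/S the Tet-O transgene also encoded V5-tagged St18. Embryoid bodies of both lines were differentiated with XAV-939 and SAG, and tdTomato+ neurons were sorted on day 12. Each condition was 1 line with 2 libraries, numbered replicate 1 and replicate 2, so the line and St18 cannot be told apart. Nothing in the labels says that libraries of a line came from separate differentiations, so p-values measure only the spread between these libraries, which may be technical.

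Sodium channels open on depolarization and carry the upstroke of the action potential. Their alpha subunits form the pore, and their beta subunits modify gating and surface expression. Voltage-gated calcium channels couple depolarization to transmitter release, gene expression and burst firing, with a Cacna1 pore assisted by alpha2delta and beta subunits. HCN channels open on hyperpolarization and carry a depolarizing current that contributes to pacemaking, a property for which neurons of the globus pallidus are known.

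St18 did not separate the libraries as labelled, with 28.5 and 26.6 TPM for N/D and 44.5 and 15.9 TPM for N/D/S, in replicate order. N/D and N/D/S therefore name libraries by label throughout. The N/D library of replicate 1 stood apart. There 2425 (21.9%) of the 11051 genes at 1 TPM or more in all other libraries were listed at 0. For any other library the same share was at most 0.329%. That share is over 7035 to 7286 genes, which had to reach 1 TPM in N/D replicate 1 too. Genes above 0 numbered 13485 and 20202 for N/D and 20855 and 17197 for N/D/S. All 6 neuron markers and all 7 GABAergic markers were at 1 TPM or more in every library, with summed levels of 2962 to 4647 TPM and 424.9 to 1102 TPM. Summed levels ranged from 1.27 to 19.1 TPM for 5 glutamatergic markers, 181 to 297 TPM for 5 progenitor markers, 0.247 to 25.0 TPM for 3 pluripotency markers, 7.00 to 14.9 TPM for 8 heart and skeletal muscle markers, 21.7 to 177 TPM for 5 peripheral sensory markers and 3.79 to 38.8 TPM for 4 endothelial and blood markers. Among the sensory markers, Isl1 or Prph was highest in each library, while Pou4f1 and Tlx3 did not exceed 1.38 and 1.94 TPM. Pecam1 was highest of the endothelial and blood markers in each library, and Cdh5 did not exceed 0.00578 TPM. Sums of those lists thus rest mostly on few genes. The 8 astrocyte and oligodendrocyte markers summed to 0 and 205 TPM for N/D and 18.6 and 76.4 TPM for N/D/S. Because TPM holds no counts, sequencing depth is unknown.

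Auxiliary subunits led the channel genes, and the same 4 genes took the 4 highest ranks in every library. They were the calcium channel beta subunits Cacnb3 and Cacnb1, the alpha2delta subunit Cacna2d3 and the sodium channel beta subunit Scn3b. Hcn3 and the alpha subunit Scn3a followed in order of mean TPM, with ranks between 5 and 7 in every library. Below them the order was less stable, and Cacna2d1 ranked 6 in the N/D library of replicate 1 but 15 to 21 in the others. The range over libraries of each of the 22 tested genes overlapped that of its neighbour in the order of mean TPM. These ranges leave out that all genes were read in the same libraries. Within each library Scn3b was above its neighbour Hcn3, and Scn9a was above its neighbour Scn1a. In these bulk samples, fewer cells of a type and less RNA per cell cannot be told apart.

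**Figure D1:**
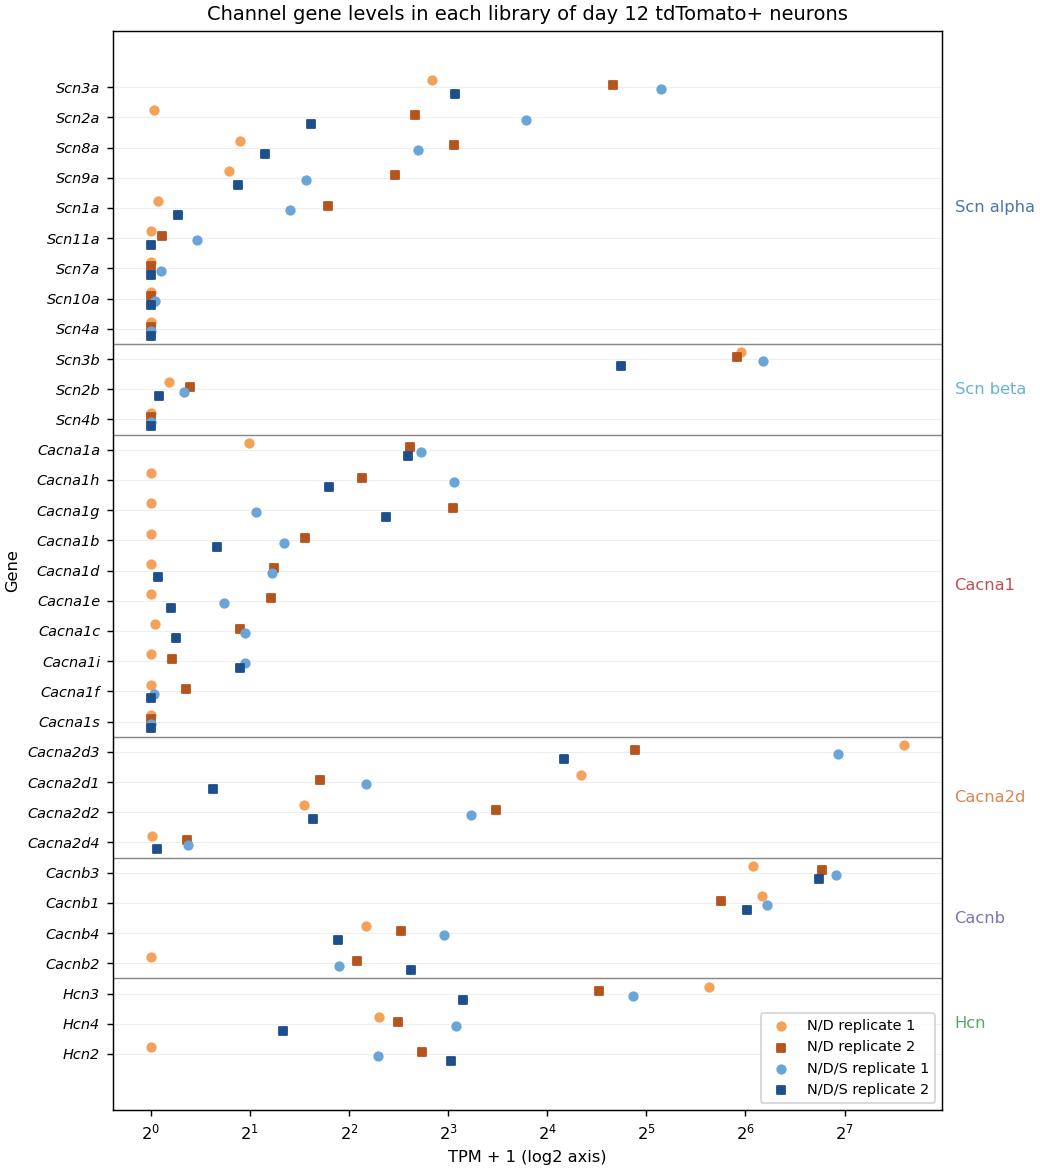
Level of 33 channel genes in each library, as TPM + 1 on a log2 axis, by family and in order of mean TPM; circles are replicate 1, squares replicate 2, orange N/D and blue N/D/S. Cacnb3, Cacnb1, Cacna2d3 and Scn3b lie farthest right, and 14 of the 33 genes sit at 0 TPM in the N/D library of replicate 1.

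Among calcium channel beta subunits, which bind the pore intracellularly and promote its surface expression, Cacnb3 had the highest mean TPM of the 36 genes. Its level was 66.4 and 109 TPM in N/D and 119 and 106 TPM in N/D/S, in replicate order as in all pairs of values that follow. Cacnb1 had 70.8 and 53.1 TPM in N/D and 73.2 and 63.7 TPM in N/D/S. Together these genes held 95.3% to 97.5% of the summed Cacnb TPM in each library, and Cacnb1 had the smallest residual standard deviation of the tested channel genes, 0.226 on the log2(TPM + 1) scale. Cacnb4 was lower, at 3.50 and 4.76 TPM in N/D and 6.76 and 2.70 TPM in N/D/S. Cacnb2 was listed at 0 in the N/D library of replicate 1 and had 3.23 TPM in N/D replicate 2, against 2.73 and 5.20 TPM in N/D/S. Neither line stood above the other for any of these 4 genes, since their values overlapped.

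Alpha2delta subunits are extracellular proteins that support trafficking of calcium channels, and Cacna2d1 is the target of gabapentin. Cacna2d3 had the largest residual standard deviation of the tested channel genes, 1.94 on the log2(TPM + 1) scale, at 193 and 28.6 TPM in N/D and 121 and 17.0 TPM in N/D/S. Its level was thus high in both replicate 1 libraries and low in both replicate 2 libraries, whichever the line. It made up 69.1% to 90.9% of the summed Cacna2d TPM in every library. Cacna2d1 had 19.2 and 2.27 TPM in N/D and 3.50 and 0.547 TPM in N/D/S, so that its highest value came from the N/D library of replicate 1. Cacna2d2 had its lowest value there, with 1.92 and 10.2 TPM in N/D and 8.38 and 2.12 TPM in N/D/S. Cacna2d4 did not exceed 0.297 TPM in any library.

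The sodium channel alpha subunits were led by Scn3a, the isoform best known from embryonic brain. Scn3a had 6.13 and 24.3 TPM in N/D and 34.4 and 7.39 TPM in N/D/S, and it held 54.5% to 78.5% of the summed alpha subunit TPM in each library. Scn2a, the alpha subunit of early axon initial segments, had 0.0257 and 5.36 TPM in N/D and 12.8 and 2.08 TPM in N/D/S. Its share of the alpha subunits was 12.0% to 22.4% in 3 libraries and 0.329% in the N/D library of replicate 1. Scn8a, which takes over at mature initial segments and nodes, had 0.869 and 7.36 TPM in N/D and 5.48 and 1.23 TPM in N/D/S. Levels of Scn9a, known from peripheral sensory neurons, were 0.729 and 4.52 TPM in N/D and 1.96 and 0.847 TPM in N/D/S. Scn1a, the alpha subunit of mature parvalbumin interneurons, was near the limit of the filter, at 0.0562 and 2.45 TPM in N/D and 1.64 and 0.214 TPM in N/D/S. All 5 alpha subunits tested were lowest in the N/D library of replicate 1 and next lowest in N/D/S of replicate 2, so that 1 library of each line was low and the values of the lines overlapped.

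Apart from Scn9a, alpha subunits best known outside the brain were below the filter. Scn4a of skeletal muscle was listed at 0 in all 4 libraries. The sensory neuron channels Scn10a and Scn11a reached 0.0315 and 0.380 TPM at most, and Scn7a, a sodium-sensing relative, reached 0.0773 TPM. Of the beta subunits, Scn3b had 61.1 and 59.3 TPM in N/D and 71.2 and 25.9 TPM in N/D/S. It belongs to the beta subunits that bind without a disulfide bond, whereas the disulfide-linked Scn2b stayed at or below 0.318 TPM and Scn4b was listed at 0 throughout.

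Calcium channel pore subunits were low by comparison. Their summed level was 1.02 and 21.8 TPM in N/D and 19.5 and 13.5 TPM in N/D/S, while Cacnb genes summed to 140.7 TPM or more in each library. The ratio of Cacnb to Cacna1 sums was 7.80 in N/D replicate 2 and 10.4 and 13.1 in N/D/S, and it was 138 in the N/D library of replicate 1. Sodium channel beta subunits exceeded alpha subunits as well, with ratios of 1.41 in N/D replicate 2, 1.30 and 2.62 in N/D/S and 7.85 in N/D replicate 1. The direction of both ratios was therefore shared by all 4 libraries, and their size was not.

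Cacna1a, the P/Q-type pore of fast transmitter release, had 0.985 and 5.14 TPM in N/D and 5.61 and 5.03 TPM in N/D/S. The N-type pore Cacna1b was listed at 0 and had 1.95 TPM in N/D, against 1.54 and 0.588 TPM in N/D/S. Of the T-type pores, which open near rest and carry burst firing, Cacna1g was listed at 0 and had 7.28 TPM in N/D, against 1.10 and 4.18 TPM in N/D/S. Cacna1h was likewise listed at 0 in N/D replicate 1, with 3.37 TPM in N/D replicate 2 and 7.33 and 2.47 TPM in N/D/S. Which pore led the family changed with the library: Cacna1a in replicate 1 of N/D and replicate 2 of N/D/S, Cacna1g in N/D replicate 2 and Cacna1h in N/D/S replicate 1. The L-type pore Cacna1d was listed at 0 and had 1.37 TPM in N/D, against 1.34 and 0.0542 TPM in N/D/S. Other L-type pores had lower maxima, as Cacna1c reached 0.934 TPM, Cacna1f of retina 0.280 TPM, and Cacna1s of skeletal muscle was listed at 0 in all libraries. The R-type pore Cacna1e passed 1 TPM in 1 library only, at 1.33 TPM in N/D replicate 2.

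HCN subunits were led by Hcn3 in every library, with 48.7 and 22.04 TPM in N/D and 28.1 and 7.88 TPM in N/D/S. Its share of the summed Hcn TPM was 92.5% and 66.8% in N/D and 70.6% and 47.6% in N/D/S. Hcn2, strongly gated by cyclic AMP, was listed at 0 in N/D replicate 1 and had 5.68 TPM in N/D replicate 2, against 3.91 and 7.16 TPM in N/D/S. In the N/D/S library of replicate 2, Hcn2 thus reached 43.2% of the family, close to Hcn3. Hcn4, the slow subunit best known from the sinoatrial node, had 3.95 and 4.64 TPM in N/D and 7.46 and 1.52 TPM in N/D/S.

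**Figure D2:**
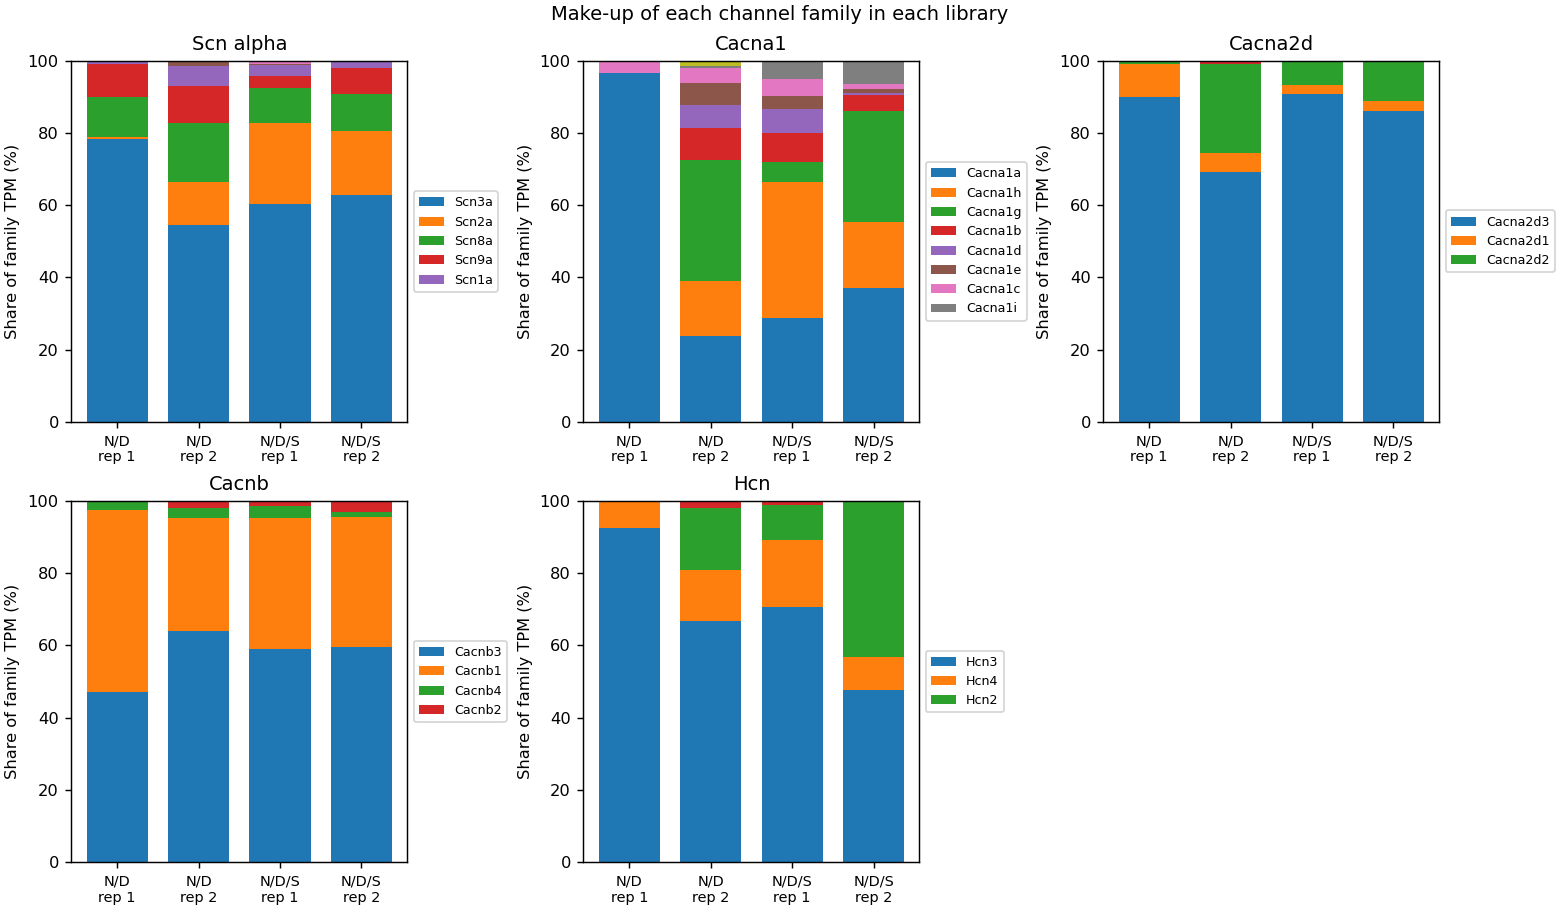
Share of each family's summed TPM held by each gene, in percent, with 1 stacked bar per library, for 5 families; genes with under 2% in every library are drawn without a name. Scn3a, Cacna2d3 and Hcn3 are the largest part of their family in each library, while the leading Cacna1 gene changes between libraries.

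In position on GRCm38, 5 of the 10 alpha subunits lay together. Scn3a, Scn2a, Scn1a, Scn9a and Scn7a lay on chromosome 2 between 65457118 and 66784914, a span of 1328 kb, and all but Scn7a were tested. Alpha subunits of the chromosome 2 group are close in sequence, so pseudoalignment may have divided reads shared among them, and their separate levels are uncertain. How many reads they share was not tested. Exons of 9 of the 22 tested genes overlapped an exon of another gene on the opposite strand, among them Cacna1a, Cacna1d, Cacna1h, Cacnb1 and Hcn3. Whether strand was used in the counting is not given in the sources used here.

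Promoters were compared because the channel genes ranged from 0 to 193 TPM. RefSeq windows on GRCm38.p6, from 250 bases before to 50 bases after a transcription start, were found for 26 of the 36 genes, 36 windows of 300 bases in all. The dinucleotide CG (CpG) marks CpG islands, the promoter class of many widely expressed genes. The median window of all 32851 in the table held 7 CpG, and 26.5% held 20 or more. Taking the richest window of each gene, 12 of the 15 tested channel genes with a window held 20 or more CpG, with a median of 35. Taken the same way, 61.4% of the 9801 genes tested that had a window held 20 or more, with a median of 23. Among channel genes below the filter the count was 3 of 11, with a median of 9, against 9.81% and a median of 3 for the 7190 listed genes below the filter. Exceptions on either side were Scn2a, Scn1a and Scn9a, which were tested with 9, 5 and 9 CpG, and Cacna1c, Scn4b and Cacna1i, which were not with 57, 26 and 23. The 3 tested exceptions all lie in the chromosome 2 group, whose most abundant gene, Scn3a, had no window in the table.

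Windows of 5 genes are shown so that level and CpG can be read side by side: the pair of genes with the highest mean TPM, 2 genes listed at 0 that differ in CpG, and Cacna1d, which held the most CpG at a mean of 0.693 TPM, each 5′ to 3′ on its own strand with every CpG in capitals. The Cacna2d3 window (chr14:29721815-29722114, minus strand) held 41 CpG, the richer Cacnb3 window (chr15:98634517-98634816, plus strand) 29, the richer Cacna1d window (chr14:30353437-30353736, minus strand) 63, the Scn4b window (chr9:45138374-45138673, plus strand) 26, and the Scn4a window (chr11:106349341-106349640, minus strand) 4.
Cacna2d3: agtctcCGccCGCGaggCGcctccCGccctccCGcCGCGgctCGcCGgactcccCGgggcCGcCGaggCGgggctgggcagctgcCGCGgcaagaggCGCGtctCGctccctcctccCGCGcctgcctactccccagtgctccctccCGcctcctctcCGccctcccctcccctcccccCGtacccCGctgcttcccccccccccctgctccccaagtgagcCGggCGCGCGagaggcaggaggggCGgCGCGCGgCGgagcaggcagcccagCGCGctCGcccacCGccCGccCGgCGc
Cacnb3: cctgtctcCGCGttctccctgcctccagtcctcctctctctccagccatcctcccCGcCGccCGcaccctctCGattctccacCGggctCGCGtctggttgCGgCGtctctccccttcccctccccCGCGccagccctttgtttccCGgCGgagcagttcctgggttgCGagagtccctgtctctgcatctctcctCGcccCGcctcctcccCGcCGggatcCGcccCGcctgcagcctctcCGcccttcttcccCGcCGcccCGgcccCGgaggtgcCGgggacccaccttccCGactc
Cacna1d: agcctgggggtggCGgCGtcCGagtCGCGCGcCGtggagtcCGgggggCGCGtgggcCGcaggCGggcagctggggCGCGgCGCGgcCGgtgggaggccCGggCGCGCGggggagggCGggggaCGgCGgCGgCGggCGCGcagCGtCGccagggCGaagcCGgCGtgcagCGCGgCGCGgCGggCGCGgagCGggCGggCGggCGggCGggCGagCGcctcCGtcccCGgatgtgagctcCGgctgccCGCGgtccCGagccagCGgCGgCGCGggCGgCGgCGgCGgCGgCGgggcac
Scn4b: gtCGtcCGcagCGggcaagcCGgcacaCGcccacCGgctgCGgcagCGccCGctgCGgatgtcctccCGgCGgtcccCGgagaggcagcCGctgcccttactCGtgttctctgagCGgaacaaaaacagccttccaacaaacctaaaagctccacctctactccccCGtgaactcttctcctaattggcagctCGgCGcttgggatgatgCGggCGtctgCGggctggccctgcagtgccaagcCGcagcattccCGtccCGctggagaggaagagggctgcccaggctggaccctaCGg
Scn4a: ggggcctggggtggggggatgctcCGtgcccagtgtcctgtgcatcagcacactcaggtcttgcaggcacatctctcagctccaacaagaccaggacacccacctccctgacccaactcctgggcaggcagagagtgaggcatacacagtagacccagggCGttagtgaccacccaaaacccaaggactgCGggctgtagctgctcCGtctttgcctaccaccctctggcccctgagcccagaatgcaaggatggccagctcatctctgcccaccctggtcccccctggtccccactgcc
A search of both strands for AAAGTTT, a sequence known to be bound by zinc fingers of the Myt1 family to which St18 belongs, found it in 0 of the 36 channel windows and in 4.74% of all windows. The letters TCAGCACC, from the left part of the element bound by the neuronal repressor REST, were in 0 of the 36 and 1.65% of all windows. The motifs were searched separately and neither holds the other, and absence says only that these letters are not in these windows.

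**Figure D3:**
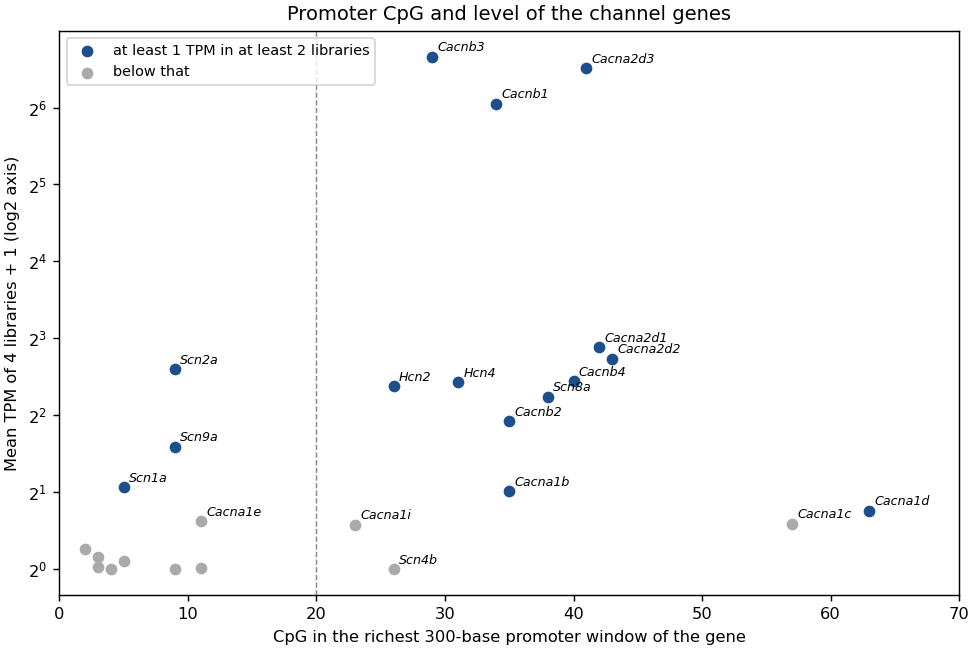
CpG count of the richest 300-base promoter window of each channel gene with a RefSeq window (26 genes), against mean TPM + 1 of the 4 libraries on a log2 axis; the dashed line is at 20 CpG, and some genes below the filter are drawn without a name. Cacnb3, Cacna2d3 and Cacnb1 lie to the right of the line, and 8 of the 11 genes below the filter lie to its left.

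N/D/S was then compared with N/D as labelled, the comparison the study set up to ask about St18. No difference was called. With limma on log2(TPM + 1) and Benjamini-Hochberg adjustment, 0 of the 22 tested channel genes were higher in N/D/S and 0 were lower at an adjusted p under 0.05, as were 0% and 0% of all 12975 genes. At an unadjusted p under 0.05 from limma, 0 channel genes were higher or lower, against 0.0231% and 0.0385% of all genes. With 2 libraries in each line, a two-sided exact permutation test of 1 gene cannot give a p under 0.333. Values of the lines overlapped for each of the 22 genes. Among all genes tested, both N/D/S libraries lay above both N/D libraries for 8.69% and below them for 8.23%.

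By family, all 5 Cacna1 and all 4 Cacnb genes tested had a log2 fold change (N/D/S relative to N/D) above 0, and all 3 Cacna2d genes had one below 0, where 61.4% of all genes tested lay above 0 and 38.6% below. Medians were 0.23 for Cacna1, 0.28 for Cacnb, −0.69 for Cacna2d, −0.06 for the 5 sodium channel alpha subunits and −0.19 for the 3 Hcn genes, while all genes tested had a median of 0.26. Over the 22 channel genes 13 (59.1%) were above and 9 (40.9%) below 0, with a median of 0.11, so the split was near that of all genes. Quantile normalization moved the median of all genes to −0.05 and turned Cacna1a, Cacna1b, Cacna1d, Cacna1g and Cacnb4 to below 0, with Scn3a, so that 7 of the 22 channel genes were then above 0 (31.8%), against 46.9% of all genes. The shared direction of the Cacna1 genes and of the Cacnb genes thus did not hold under that scaling. Directions of Cacna1 and Cacna2d also turned when some libraries were left out. Without the N/D library of replicate 1 the Cacna1 median was −0.55, and without the N/D/S library of replicate 2 Cacna2d2 was at 0.71, Cacna2d3 at 0.69 and the Cacna2d median at 0.69.

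The highest log2 fold change was that of Cacna1h, at 1.36 (standard error 1.16, adjusted p = 1 from limma). Close behind were Scn2a at 1.35 (standard error 1.32), Hcn2 at 1.29 (standard error 1.22) and Cacnb2 at 1.23 (standard error 1.12). Scn2a was at 0.0257 TPM in the N/D library of replicate 1 and the other 3 were listed at 0 there, so the pseudocount has a part in their size. With a pseudocount of 0.1 in place of 1 they were 2.89 for Cacna1h, 2.68 for Scn2a, 2.83 for Hcn2 and 2.75 for Cacnb2. Without that library, and with a pseudocount of 1, these 4 values were between −0.08 and 0.30. The lowest was that of Cacna2d1, at −1.63 (standard error 1.25, limma adjusted p = 1, unadjusted p = 0.236), followed by Hcn3 at −1.07 (standard error 1.10, adjusted p = 1 from limma) and Cacna2d3 at −0.69 (standard error 1.41, adjusted p = 1 from limma). Without the N/D library of replicate 1, Cacna2d1 was at −0.31, Hcn3 at −0.52 and Cacna2d3, with its direction turned, at 0.66.

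**Figure D4:**
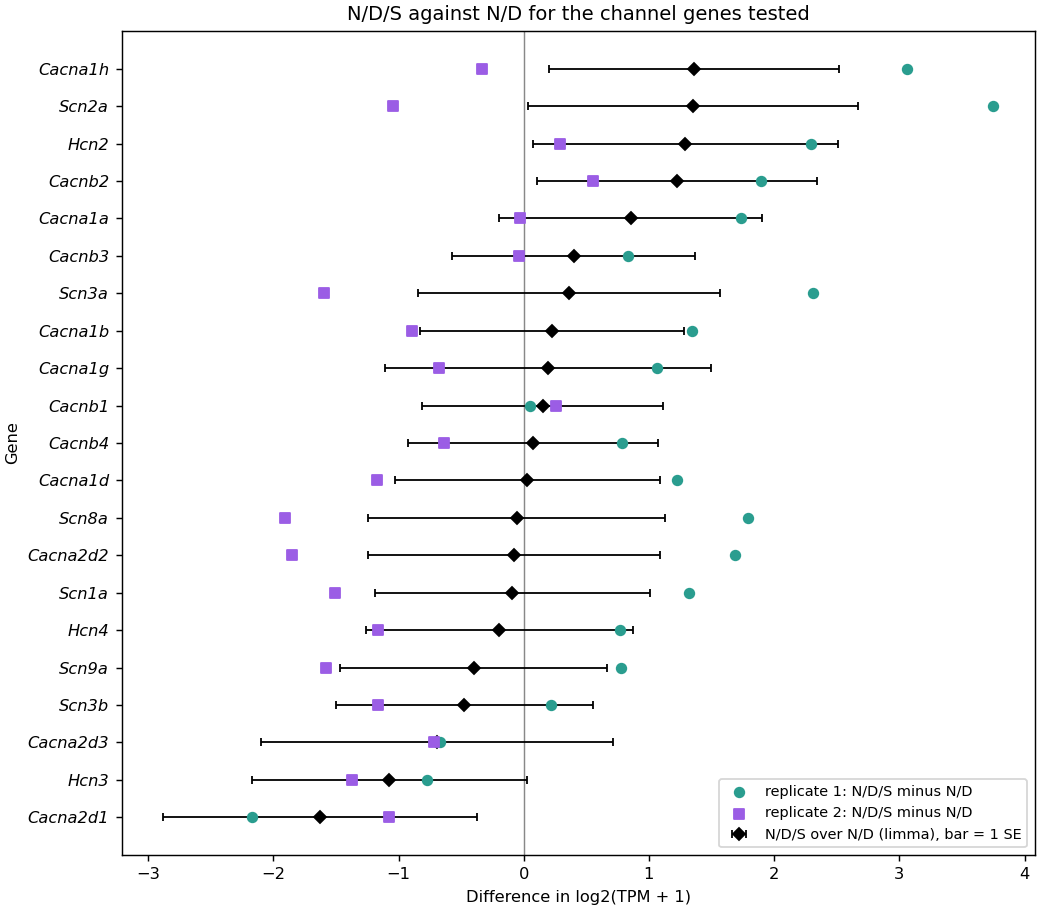
Difference between N/D/S and N/D in log2(TPM + 1) for 21 of the channel genes tested: the diamond is the limma estimate with a bar of 1 standard error, the circle the difference within replicate 1 and the square that within replicate 2. For 15 genes the circle lies above 0 and the square below it, and for 3 (Cacna2d1, Hcn3 and Cacna2d3) both lie below 0.

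Read within replicate numbers, most channel genes disagreed in direction. For 15 of the 22, N/D/S was higher in replicate 1 and lower in replicate 2, as for 56.6% of all genes tested, and the reverse held for 0, against 9.06% of all. The 5 sodium channel alpha subunits were all of this kind. Scn3a differed by 2.31 on the log2(TPM + 1) scale in replicate 1 and −1.59 in replicate 2, and Scn2a by 3.75 and −1.05. N/D/S was higher within both numbers for 4 of 22 genes, among them Hcn2, Cacnb2 and Cacnb1, against 15.9% of all genes. It was lower within both for Cacna2d1 (−2.17 and −1.08), Hcn3 (−0.77 and −1.38) and Cacna2d3 (−0.67 and −0.72), which is 3 of 22, against 17.9% of all genes. These shares lay near those of all genes.

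The N/D library of replicate 1 bore on most of these values. It held the lowest of the 4 values for 15 of the 22 genes, against 56.3% of all genes tested. In that library 12 of the 22 were under 1 TPM, against 42.1% of all genes, and 7 were listed at 0, against 26.1%. All 5 Cacna1 genes and 4 of the 5 sodium channel alpha subunits were under 1 TPM there, while Cacna2d3, Cacna2d1 and Hcn3, which is 3 of 22 genes against 21.2% of all, were at their highest. These pore subunits have long transcripts, the longest annotated ones having a median of 8383 bases for Cacna1 and 9560 for the alpha subunits, against 5807 for Cacna2d, 4213 for Cacnb, 4002 for Hcn and 3286 for all genes tested with an annotated length. Cacna2d1, at 7436 bases, was long and at its highest there. Across the 22 genes, the deviation of that library from the mean of the others had a Spearman correlation of −0.17 with length, given as a description since all points share the same libraries, and across 12869 genes it was −0.10. The same value was 0.58 over the 22 genes and 0.18 over all in the other N/D library, 0.28 and 0.33 in N/D/S of replicate 1, and −0.17 and −0.27 in N/D/S of replicate 2. That sign was therefore shared by a library of each line. The part of transcript length in the differences between the lines was not tested.

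**Figure D5:**
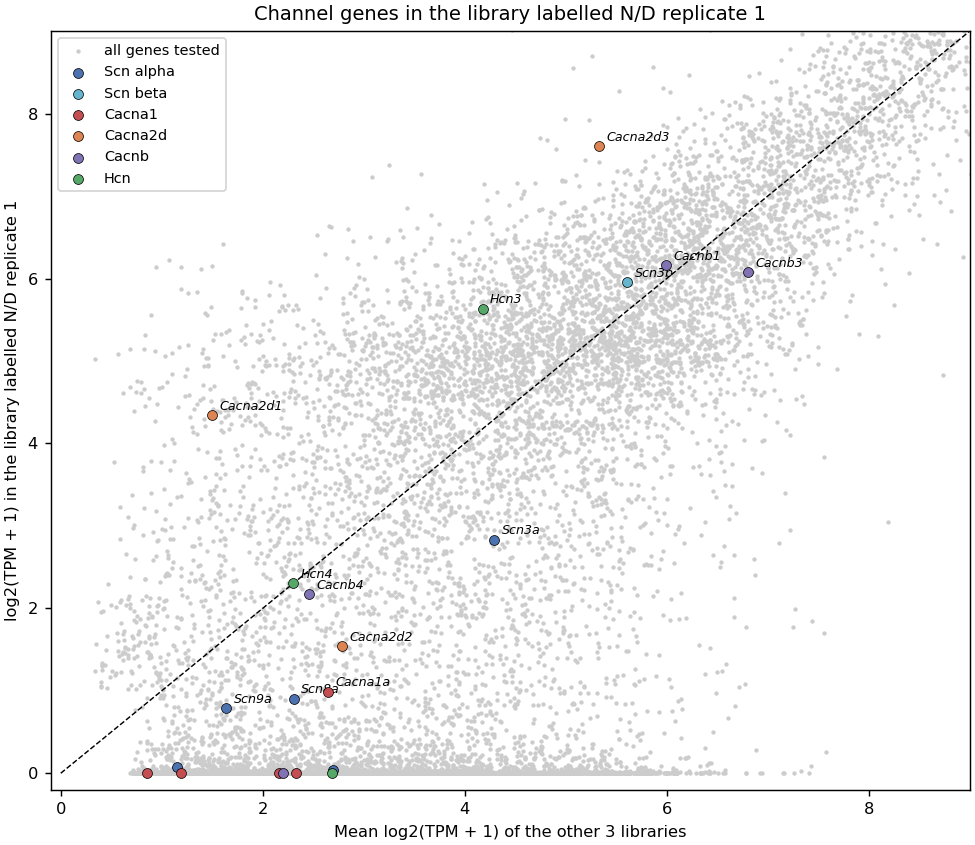
Level of each gene in the N/D library of replicate 1 against its mean in the other 3 libraries, both as log2(TPM + 1), for all genes tested (grey) and 21 channel genes (coloured by family); the dashed line marks equal values, channel genes near 0 are drawn without a name, and genes past the axis limit of 9 are not drawn. Cacna2d1, Hcn3 and Cacna2d3 lie well above the line, while 4 of the 5 Cacna1 genes lie at 0 on the vertical axis.

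The values of the lines did not overlap for 1 channel gene below the filter, named after its values were seen. Cacna1i, the third T-type pore, had 0.00233 and 0.164 TPM in N/D and 0.936 and 0.865 TPM in N/D/S, below 1 TPM in every library. With no filter on low values its log2 fold change was 0.82 (standard error 0.14, limma adjusted p = 1, unadjusted p = 0.0119). Its values lie where log2(TPM + 1) compresses the spread. That error also belongs to the fit with no filter, so it is not comparable with the standard errors of the tested genes. Of the 33 channel genes then fitted it was the 1 gene with an unadjusted p under 0.05, against 0.402% of 23608 genes in that direction, and the 1 gene with both N/D/S libraries above both N/D libraries, against 7.51%, while 0 of the 33 had both below, against 6.54%.

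Genes of proteins that associate with these channels were read alongside, from a list of 28 symbols of which 27 were listed and 23 tested. The list held calcium channel gamma subunits and their relatives, intracellular Fgf factors that bind sodium channels, ankyrins and spectrin of the axon initial segment, the leak channel Nalcn with its partners, the HCN partner Pex5l, small GTPases that inhibit calcium channels and Stac adaptors. By limma with Benjamini-Hochberg adjustment, 0 of the 23 were higher and 0 lower in N/D/S, and 0 had an unadjusted p under 0.05, with a median log2 fold change of 0.26. The highest mean level was that of Cacng4, an AMPA receptor regulator of the gamma family, at 116 and 129 TPM in N/D and 104 and 48.6 TPM in N/D/S. Rem2, a GTPase that inhibits calcium channels, had 97.3 and 69.3 TPM in N/D and 121 and 46.8 TPM in N/D/S. Ank3, which anchors sodium channels at the initial segment, had 106 and 25.8 TPM in N/D and 25.1 and 8.51 TPM in N/D/S. Both N/D/S values lay below both N/D values for Cacng4 and Ank3, and of the 23 genes 3 lay below and 3 above without overlap, where 8.23% and 8.69% of all genes did. The others, named after their values were seen, were Fgf12 below and Rrad, Unc79 and Stac2 above, the last 3 with 0.0238 TPM or less in the N/D library of replicate 1. Of the 23 tested, 16 genes were under 1 TPM in that library and 11 were listed at 0, where the shares of all genes were 42.1% and 26.1%.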

How the data were processed

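Bulk RNA-seq of tdTomato+ neurons, 2 libraries from each of 2 lines on day 12, was analysed from 1 file per library. The authors deposited TPM for each gene symbol, from poly-A selected paired-end reads pseudoaligned with kallisto 0.44.0 (build GRCm38 per the submitters' processing notes). The transcriptome release, and how transcripts were combined, are not given in the sources used here. TPM gives no depth.

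Files were joined on symbol after leaving out 26 rows with symbols turned into dates. Genes reaching 1 TPM in 2 or more libraries were fitted with limma 3.58.1 in R 4.3.3 on log2(TPM + 1), 2 against 2 without covariates, with Benjamini-Hochberg adjustment over all 12975 genes and a threshold of 0.05 (two-sided). Fold changes on this scale understate the change of low genes. sleuth, which the study used, could not be run on TPM. The fit was first run on simulated data. The pass condition was set only at a spread well under that of these libraries, whose median residual standard deviation was 1.03. That run therefore does not show what the fit could detect here. Sample labels gave the groups and replicate numbers. GENCODE M21 (GRCm38) gave gene positions and transcript lengths, the latter matched for 12869 of the genes tested (99.2%).

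Channel genes, associated genes and markers were lists chosen with earlier results of these data known. Named were the channel genes, except a few that are not reported here by name but stay in all counts, the 3 associated genes of highest mean TPM and any with an unadjusted p under 0.05; Fgf12, Rrad, Unc79 and Stac2 were named outside this rule, after their values were seen. Alternatives were other pseudocounts, filters and scalings, a variance trend, replicate number as a block, and each library left out. Python 3.11.15 with pandas 2.3.3, scipy 1.17.1 and matplotlib 3.10.9 made tables and figures.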

Additional observations from a re-analysis of the deposited data

How the results depend on the processing

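Of 415 alternative values over 33 results, 31 log2 fold changes of single genes and 16 medians over genes changed sign, and the causes were not tested. Channel genes higher and lower in N/D/S by limma with Benjamini-Hochberg adjustment stayed at 0 and 0 in every alternative run. For all genes the numbers were 0 and 0 except with a variance trend, which gave 5 higher and 1 lower, and after leaving out the N/D library of replicate 2, which gave 2213 and 160 (ranges with 1 library left out 0 to 2213 and 0 to 160). In that fit, and in each that left a line with 1 library, the lone library was assumed to vary like the others. Without the N/D library of replicate 2, the median log2 fold change was 0.83 over the channel genes and 0.88 over all genes. Cacna2d1 was at −2.94 there, against −1.63 with all libraries.

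Replicate number as a block left every log2 fold change as it was and called 0 genes, with 9 at an unadjusted p under 0.05 against 8 without the block. Same-numbered libraries had a correlation of 0.02 in their deviations from the line means, and the labels do not say that a number marks a shared batch. Both replicate 1 files listed 35197 symbols and both replicate 2 files 35204. Pluripotency markers summed to 0.247 and 0.472 TPM in replicate 1 of N/D and N/D/S, and to 19.8 and 25.0 TPM in replicate 2. GABAergic and progenitor sums did not split by number. What the numbers mark was not tested.

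The median of the Scn beta subunits moved to 1.09 with a pseudocount of 0.1 and −0.47 with only genes at 1 TPM in every library, and that of Hcn to −0.63 with the latter and −0.87 with quantile normalization. Quantile normalization turned Cacna1a to −0.20, Cacna1b to −0.20, Cacna1d to −0.27, Cacna1g to −0.25, Cacnb4 to −0.67 and Scn3a to −0.13. A pseudocount of 0.1 turned Scn1a to 0.23 and Scn8a to 0.019. With 1 library left out, medians ranged from −0.94 to 1.02 for Scn alpha, from −0.19 to 0.87 for Scn beta, from −0.55 to 1.67 for Cacna1, from −2.08 to 0.69 for Cacna2d, from 0.12 to 0.55 for Cacnb and from −1.07 to 0.68 for Hcn, and that of the 22 channel genes −0.50 to 0.83 (−0.30 and 0.83 after leaving out N/D replicates 1 and 2, −0.50 and 0.64 after leaving out N/D/S replicates 1 and 2), against −0.26 with quantile normalization and −0.081 with only genes at 1 TPM in every library. Leaving out a library turned the direction of 14 genes: Cacna1b from −0.55 to 1.01, Cacna1d from −0.59 to 0.65, Cacna1g from −1.33 to 1.72, Cacna2d2 from −1.05 to 0.89, Cacna2d3 from −2.08 to 0.69, Cacnb1 from −0.051 to 0.36, Cacnb4 from −0.46 to 0.61, Hcn2 from −0.078 to 2.66, Hcn4 from −1.07 to 0.68, Scn1a from −0.94 to 0.76, Scn3a from −0.68 to 1.40, Scn3b from −1.19 to 0.24, Scn8a from −1.14 to 1.02, Scn9a from −1.24 to 0.44. It did not for Cacna1a from 0.040 to 1.67, Cacna1h from 0.30 to 2.43, Cacna2d1 from −2.94 to −0.31, Cacnb2 from 0.19 to 2.27, Cacnb3 from 0.048 to 0.75, Hcn3 from −1.93 to −0.22, Scn2a from 0.034 to 2.67. With at least 1 TPM in every library 9 channel genes remained to be tested. What depth limits, for low genes such as Cacna1i, could not be assessed from TPM.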
